A study of Mus musculus with 8 samples.

Results

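The 10 immune checkpoint genes described here were followed in subcutaneous tumors of Lewis lung carcinoma (LLC), a lung cancer line of C57BL/6 origin implanted here in C57BL/6J mice. They comprise 5 ligands (Cd274, Pdcd1lg2, Cd80, Cd86 and Lgals9) and 5 receptors (Pdcd1, Ctla4, Lag3, Havcr2 and Tigit). The members were chosen by name, and all 10 were found among the 55487 genes of the count table. Whole tumors were taken at day 12 after engraftment from female mice implanted as young adults. Of the 8 libraries, 4 came from tumors of wild-type LLC cells and 4 from tumors of cells labelled Ago2 knock-out (ΔAgo2). Argonaute 2 (Ago2) is the RNA interference protein that is guided by small RNAs and cleaves their target transcripts. The knock-out cells had received a lentiviral CRISPR vector with puromycin selection and were single-cell cloned, so the genotype cannot be told apart from the history of a clone. The hosts were wild-type mice in both groups, and the immune and stromal cells they contributed still carried Ago2. The comparison asked whether the transcripts through which tumors and immune cells restrain T cells differed between the genotypes, and whether ligands and receptors did so alike.

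T cells are switched on by antigen together with a second signal through CD28, and immune checkpoints are the brakes on this process. PD-1, encoded by Pdcd1, is a receptor on activated T cells that is engaged by PD-L1 (Cd274) on tumor, myeloid and other cells and by PD-L2 (Pdcd1lg2), mostly on myeloid cells. CTLA-4 (Ctla4) competes with CD28 for the ligands CD80 and CD86 on antigen-presenting cells. TIM-3 (Havcr2) has galectin-9 (Lgals9) as one of its proposed ligands and is carried by myeloid cells as well as by T cells, while LAG-3 (Lag3) and TIGIT (Tigit) are found on T and NK cells. Interferon, above all interferon gamma, is known to raise PD-L1.

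The ligand genes Cd274 and Pdcd1lg2 are neighbours. Cd274 lies at chr19:29367455-29388095 and Pdcd1lg2 at chr19:29410919-29471161, both on the plus strand of GRCm38, with 22.8 kb between them. The promoter sequences, from 250 bases before to 50 bases after the gene start, were taken from RefSeq on GRCm38.p6, which held 8 of the 10 members and neither Cd86 nor Lag3. They were searched on both strands for an IRF element (GAAANNGAA) and for a gamma-activated site, GAS (TTCNNNGAA), and no matches of the 2 motifs overlapped. The 3 promoters with an IRF element are shown, together with that of Pdcd1lg2 as the neighbour of Cd274 that had none. Capitals mark the IRF element, which in each case reads on the opposite strand to the gene.
Cd274, chr19:29367188-29367487, plus strand: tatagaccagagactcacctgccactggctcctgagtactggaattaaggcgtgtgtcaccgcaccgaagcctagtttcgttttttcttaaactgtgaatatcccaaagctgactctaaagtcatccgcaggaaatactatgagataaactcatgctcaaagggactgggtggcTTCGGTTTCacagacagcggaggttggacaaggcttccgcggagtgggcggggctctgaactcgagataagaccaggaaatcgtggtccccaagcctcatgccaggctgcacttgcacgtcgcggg
Lgals9, chr11:78984875-78985174, minus strand: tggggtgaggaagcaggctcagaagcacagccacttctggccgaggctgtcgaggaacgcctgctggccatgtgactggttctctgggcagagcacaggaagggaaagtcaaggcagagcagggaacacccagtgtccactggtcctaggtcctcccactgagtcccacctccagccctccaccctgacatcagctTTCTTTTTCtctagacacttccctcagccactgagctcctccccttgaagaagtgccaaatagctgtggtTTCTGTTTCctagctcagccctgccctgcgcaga
Ctla4, chr1:60908775-60909074, plus strand: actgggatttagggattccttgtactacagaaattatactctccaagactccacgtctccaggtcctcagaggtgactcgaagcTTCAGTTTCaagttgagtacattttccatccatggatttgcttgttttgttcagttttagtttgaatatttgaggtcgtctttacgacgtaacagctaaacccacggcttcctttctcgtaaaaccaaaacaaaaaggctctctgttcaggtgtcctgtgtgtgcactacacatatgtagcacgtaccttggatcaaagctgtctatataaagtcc
Pdcd1lg2, chr19:29410669-29410968, plus strand: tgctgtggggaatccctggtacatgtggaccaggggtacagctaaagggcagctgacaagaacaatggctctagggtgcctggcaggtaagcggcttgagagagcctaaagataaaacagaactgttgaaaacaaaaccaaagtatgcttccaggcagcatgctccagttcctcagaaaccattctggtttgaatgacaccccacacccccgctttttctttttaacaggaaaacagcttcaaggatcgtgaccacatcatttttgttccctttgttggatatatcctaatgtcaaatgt
With the gene start counted as 0, the IRF element began at position -76 in Cd274, at -54 and 16 in Lgals9 and at -166 in Ctla4, where the RefSeq start lies inside the longer GENCODE gene. It was present in 8.56% of 32851 mouse promoters of the same length. The GAS was present in 8.3% of them and in none of the 8 member promoters. These matches describe letters and were not tested as binding sites.

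The libraries differed widely in depth, from 7903288 counts in wild-type tumor 4 to 268564145 in ΔAgo2 tumor 4. A gene with 0 counts could therefore have been present at up to 0.43 CPM (counts scaled to a TMM-adjusted library total of 1000000) in the former and up to 0.0105 CPM in the latter, counting error only. Ago2 itself, measured in whole tumors, ran from 129.9 to 195 CPM in wild-type and from 118.3 to 354.7 CPM in ΔAgo2 tumors, with a log2 fold change of 0.64, a standard error (SE) of 0.31 and an adjusted p of 0.209 (edgeR). The transcript was thus not shown to be lower and does not check the labels, on which every direction below rests. Over 25 processing settings the log2 fold change of Ago2 ran from 0.10, with a correction for gene length, to 0.86, by limma voom with quality weights. In 2 of these settings Ago2 passed the threshold of 0.05 as higher in ΔAgo2 tumors. The adjusted p was 0.014 by limma voom, and 0.0459 by edgeR without ΔAgo2 tumor 1, at a log2 fold change of 0.85. For the knock-out itself, the paper shows a western blot of Ago2 protein in LLC cells, from which it chose a clone for engraftment. That blot was of cells and not of the tumors sequenced here. Of 5 epithelial markers listed for the cancer cells, Krt8 ran from 231 to 501 CPM and Krt18 from 257 to 845 CPM over the 8 libraries. Epcam did not exceed 4.36 CPM, and the lung factor Nkx2-1 had 0 counts throughout. The 4 tested all had log2 fold changes above 0, with a median of 0.84, and 0 were called by edgeR. The largest was that of Cdh1, at 1.38 with an adjusted p of 0.0663 (edgeR). Which cells carried these transcripts was not measured. Some libraries carried more of the surrounding tissue than others. The summed level of 10 skeletal muscle markers was 261 to 3670 CPM in wild-type tumors, with wild-type tumor 3 highest, and 52.6 to 215 CPM in ΔAgo2 tumors. That of 10 skin keratinocyte markers was 16.9 to 607 CPM, with wild-type tumor 3 lowest, against 497 to 966 CPM, and the keratin Krt10 passed the test at a log2 fold change of 2.06 with an SE of 0.49 and an adjusted p of 0.0496 (edgeR). The part of this in the results below was not tested.

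Of the 10 members, 1 was higher in ΔAgo2 tumors at an adjusted p under 0.05 (quasi-likelihood test of edgeR, Benjamini-Hochberg adjustment over the 16061 genes tested) and 0 were lower. The member that rose was Cd274. Over all genes tested, 1.17% were called higher and 1.92% lower. By DESeq2 2 members were called higher and 0 lower, beside 6.11% and 6.26% of the 17899 genes to which it gave an adjusted p. An unadjusted p under 0.05 by edgeR was reached by 4 of the 10 members and by 26.3% of all genes tested. In 3 members (Cd274, Cd86 and Lgals9) every ΔAgo2 tumor stood above every wild-type tumor, an arrangement found in 8.05% of genes tested, and in 0 members did every ΔAgo2 tumor stand below, against 8.36% of genes tested. All 10 members passed the filter on low counts. Where single values are listed for a group, they follow the order of tumors 1 to 4.

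**Figure D1:**
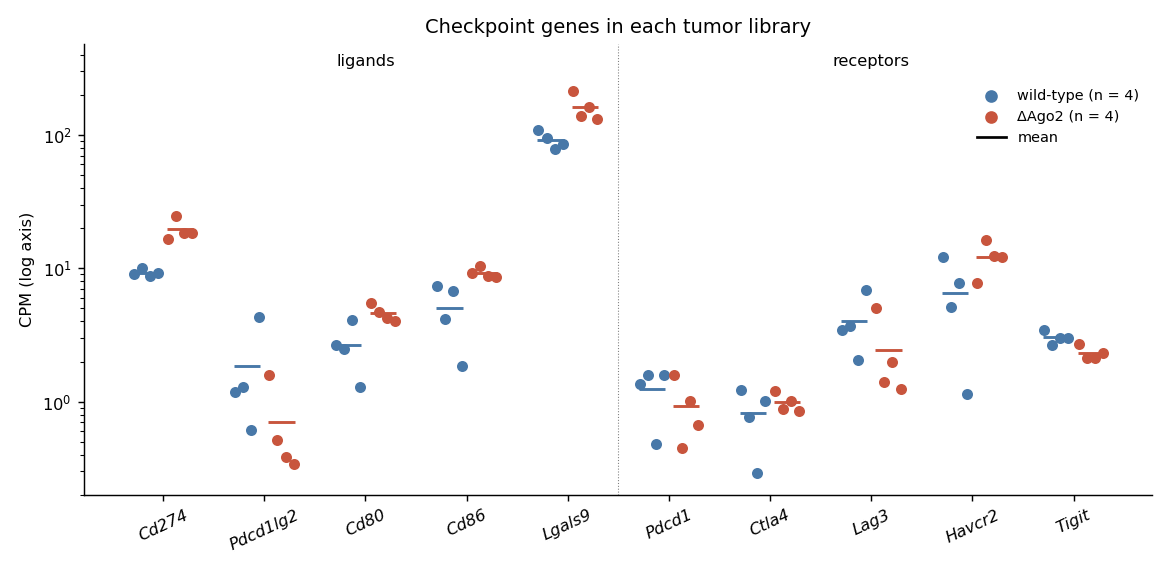
Level of each checkpoint gene in CPM (log axis) in 4 wild-type (blue) and 4 ΔAgo2 (red) tumor libraries. Points are single libraries, ordered 1 to 4 from left to right within a group, and the line is the group mean. The red points of Cd274, Cd86 and Lgals9 lie above all blue points, while those of the receptors overlap the blue ones.

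The PD-1 axis was examined first. Cd274, the gene of PD-L1, stood at 9.11, 9.96, 8.74 and 9.17 CPM in the wild-type tumors. It stood at 16.6, 24.9, 18.4 and 18.3 CPM in the ΔAgo2 tumors. The wild-type tumors were thus closely grouped and all lay below the lowest ΔAgo2 tumor. The mean rose from 9.25 ± 0.513 to 19.5 ± 3.65 CPM (SD, n = 4 each), a 2.11-fold difference with a log2 fold change of 1.08, an SE of 0.21 and an adjusted p of 0.0254 (edgeR). The call depended on the setting. After removal of each library's trend on GC content the log2 fold change was 0.61 with an adjusted p of 0.169. When wild-type tumor 2 or 4 was left out, or ΔAgo2 tumor 2, 3 or 4, it was 0.93 to 1.12 with an adjusted p of 0.0501 to 0.094. Leaving out wild-type tumor 3, which had the most muscle and the least keratinocyte RNA, left it at 1.05 with an adjusted p of 0.0441 by edgeR. The gene overlaps the antisense gene AC119228.1 by 511 exon bases. That antisense gene had at most 2 counts in any library. The strand setting of the counting is not given, and the effect of the overlap on Cd274 was not tested.

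Pdcd1lg2, the gene of PD-L2, did not follow its neighbour. Its level was 1.18, 1.29, 0.61 and 4.3 CPM in the wild-type tumors and 1.58, 0.518, 0.388 and 0.34 CPM in the ΔAgo2 tumors. The groups overlapped, because ΔAgo2 tumor 1 stood higher than 3 wild-type tumors, and the highest value belonged to the shallowest library, where it rested on 30 counts. The log2 fold change was -1.29 with an SE of 0.69 and an adjusted p of 0.254 (edgeR). Without wild-type tumor 4 it was -0.53, and leaving out ΔAgo2 tumor 1 gave -2.03 (adjusted p of 0.0687, edgeR). The receptor Pdcd1 was measured at 1.37, 1.57, 0.484 and 1.58 CPM in wild-type tumors and at 1.58, 0.447, 1.01 and 0.665 CPM in ΔAgo2 tumors. The highest and the lowest values of the groups were close to each other, so that both covered one range. Its log2 fold change was -0.41 with an SE of 0.51 and an adjusted p of 0.623 (edgeR). It ranged from -0.81 without ΔAgo2 tumor 1 and -0.71 without wild-type tumor 3 to -0.19 without ΔAgo2 tumor 2.

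Because levels of different genes can be compared only per length, the partners of this axis were set against each other as ratios of TPM (the authors' values, scaled for gene length and to a total of 1000000 per library). Cd274 exceeded Pdcd1lg2 by 4.17, 4.19, 7.73 and 1.15 times in the wild-type tumors and by 5.68, 25.9, 25.8 and 29.1 times in the ΔAgo2 tumors. ΔAgo2 tumor 1 thus lay within the wild-type range and the other 3 lay far above it. The ratio of Cd274 to its receptor Pdcd1 had a median of 3.46 in wild-type and 12.2 in ΔAgo2 tumors. On this ratio wild-type tumor 3, at 9.67, exceeded ΔAgo2 tumors 1 and 3, at 5.58 and 9.63.

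The ligands of CD28 and CTLA-4 both stood higher on average in ΔAgo2 tumors, without passing the test. Cd86 was at 7.31, 4.15, 6.79 and 1.86 CPM in the wild-type tumors and at 9.19, 10.5, 8.75 and 8.63 CPM in the ΔAgo2 tumors. The groups did not overlap. The wild-type tumors were spread over a wide range, and the lowest of them, tumor 4, rested on 13 counts. The log2 fold change was 0.84 with an SE of 0.36, an unadjusted p of 0.0398 and an adjusted p of 0.171 (edgeR). Cd80 was at 2.68, 2.48, 4.12 and 1.29 CPM in wild-type tumors and at 5.46, 4.7, 4.24 and 4.04 CPM in ΔAgo2 tumors. The overlap was narrow, with wild-type tumor 3 above ΔAgo2 tumor 4 alone, and the log2 fold change was 0.76 with an SE of 0.34, an unadjusted p of 0.0475 and an adjusted p of 0.186 (edgeR). Without wild-type tumor 4 the log2 fold changes were 0.61 for Cd86 and 0.58 for Cd80.

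Their proportion to each other was also examined. The TPM ratio of Cd86 to Cd80 was 2.76, 1.69, 1.66 and 1.47 in the wild-type tumors and 1.71, 2.25, 2.09 and 2.16 in the ΔAgo2 tumors, so that the ranges overlapped. The receptor Ctla4 was low, at 1.22, 0.763, 0.294 and 1.0 CPM in wild-type tumors and at 1.21, 0.886, 1.01 and 0.851 CPM in ΔAgo2 tumors. All 4 ΔAgo2 values fell inside the wild-type range. The log2 fold change was 0.30 with an SE of 0.45 and an adjusted p of 0.697 (edgeR). Its sign rested on wild-type tumor 3, without which it was -0.03, and it was -0.26 after the GC correction.

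Lgals9, the gene of galectin-9, was the most abundant member. Its level was 108.2, 94.6, 77.8 and 85.1 CPM in the wild-type tumors and 213, 139, 163 and 131 CPM in the ΔAgo2 tumors. The groups did not overlap, and ΔAgo2 tumor 1 was the highest. The means were 91.5 ± 13.1 and 161 ± 36.9 CPM (SD, n = 4 each), with a log2 fold change of 0.82, an SE of 0.21, an unadjusted p of 0.00275 and an adjusted p of 0.0624 (edgeR). The gene thus missed the threshold here, while DESeq2's Wald test gave an adjusted p of 0.0108. The GC correction left the log2 fold change at 0.85 with an adjusted p of 0.056 (edgeR). With each library left out it was 0.65 to 0.92, with an adjusted p of 0.0521 to 0.151 by edgeR.

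Havcr2, the gene of TIM-3, had the widest spread of the receptors. It stood at 12.1, 5.15, 7.71 and 1.15 CPM in the wild-type tumors and at 7.74, 16.2, 12.3 and 12.2 CPM in the ΔAgo2 tumors. Wild-type tumor 1 lay among the ΔAgo2 tumors and ΔAgo2 tumor 1 among the wild-type tumors, and the lowest value, in wild-type tumor 4, rested on 8 counts. The log2 fold change was 0.85 with an SE of 0.50 and an adjusted p of 0.296 (edgeR), and it was 0.54 without wild-type tumor 4. The TPM ratio of Lgals9 to Havcr2 had a median of 18.1 in wild-type and 15.3 in ΔAgo2 tumors, with a range of 11.4 to 94.5 in the former that held all but 1 of the latter, the exception being ΔAgo2 tumor 2 at 10.9.

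The 2 remaining receptors had lower means in ΔAgo2 tumors, and neither passed the test. Lag3, an inhibitory relative of CD4 that binds MHC class II, was at 3.45, 3.67, 2.04 and 6.88 CPM in the wild-type tumors and at 5.03, 1.41, 2.0 and 1.25 CPM in the ΔAgo2 tumors. ΔAgo2 tumor 1 stood above 3 wild-type tumors, and the other 3 ΔAgo2 tumors stood below all of them. The log2 fold change was -0.70 with an SE of 0.52 and an adjusted p of 0.396 (edgeR), moving to -1.35 without ΔAgo2 tumor 1, to -0.32 without wild-type tumor 4 and to -0.13 after the GC correction. Tigit, whose product binds the poliovirus receptor, was the steadiest receptor. It was at 3.47, 2.67, 2.98 and 3.01 CPM in wild-type tumors and at 2.69, 2.12, 2.12 and 2.31 CPM in ΔAgo2 tumors. The groups overlapped only through ΔAgo2 tumor 1, which exceeded wild-type tumor 2, and the log2 fold change was -0.39 with an SE of 0.27 and an adjusted p of 0.363 (edgeR).

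**Figure D2:**
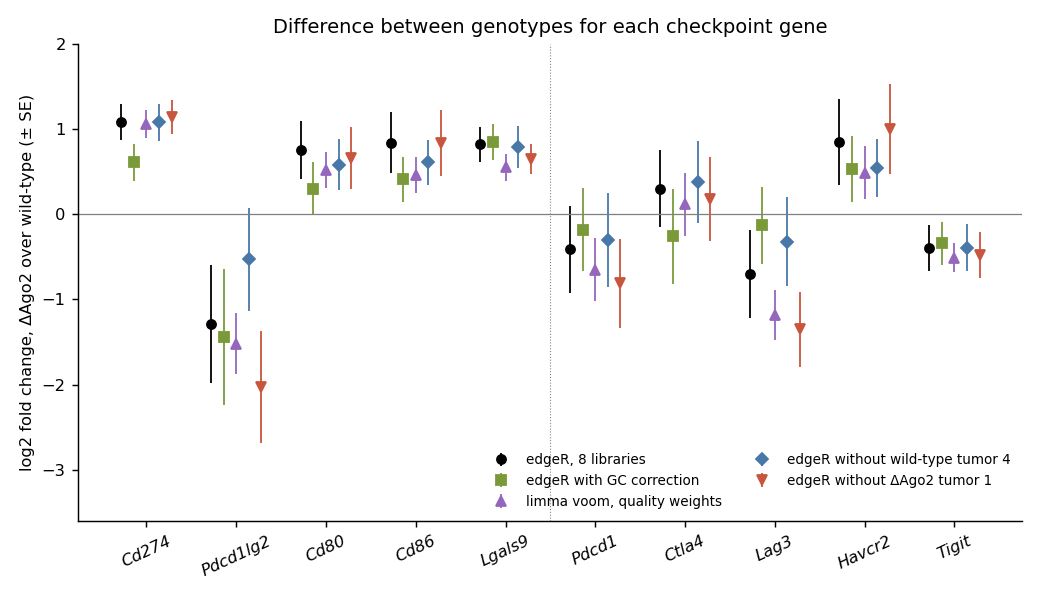
Log2 fold change of ΔAgo2 over wild-type tumors for each checkpoint gene, with bars of 1 SE, under 5 settings (edgeR on 8 libraries, edgeR with GC correction, limma voom with sample quality weights, and edgeR without wild-type tumor 4 or ΔAgo2 tumor 1). Cd274 is at 1.08 with 8 libraries and at 0.61 after the GC correction, Lgals9 stays between 0.55 and 0.85, and Ctla4 lies on both sides of 0.

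Removal of the GC trend moved the members by different amounts. In Ctla4, Cd80, Cd86, Cd274 and Havcr2 the GC content of the longest transcript was 42.58% to 45.28%. These 5 members all came out lower after the correction, with log2 fold changes of -0.26, 0.30, 0.41, 0.61 and 0.53. Lag3, the most GC-rich member at 59.92%, went from -0.70 to -0.13, and Pdcd1, at 54.61%, from -0.41 to -0.18. Lgals9, at 51.83%, went from 0.82 to 0.85, Tigit, at 52.34%, from -0.39 to -0.34, and Pdcd1lg2, at 49.51%, from -1.29 to -1.44. The shifts of Cd274, Cd80, Cd86, Ctla4 and Lag3 were larger than the SE of the first value, and those of Pdcd1, Havcr2, Lgals9, Tigit and Pdcd1lg2 were smaller than it.

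Taken by role, 4 of the 5 ligands had a log2 fold change above 0, with a median of 0.82, and 2 of the 5 receptors, with a median of -0.39, beside a median of 0.04 over all genes tested. The mean log2 CPM of the ligands was 2.91, 2.73, 2.72 and 2.61 in the wild-type tumors and 3.63, 3.30, 3.10 and 2.98 in the ΔAgo2 tumors, so that every ΔAgo2 tumor stood above every wild-type tumor. The mean log2 CPM of the receptors was 1.6, 1.2, 0.6 and 1.07 in wild-type tumors and 1.54, 0.89, 1.17 and 0.89 in ΔAgo2 tumors, with a mean of 1.12 in each group. The ligand mean minus the receptor mean was 1.62 ± 0.35 in wild-type and 2.13 ± 0.20 in ΔAgo2 tumors (SD, n = 4 each, log2 scale), a difference of 0.50. As CPM is not scaled for gene length, only the difference between the groups is read. The groups overlapped on this measure through wild-type tumor 3, at 2.12, and the difference was 0.20 after the GC correction. No test was made of these means, since the members were chosen with results of these data known.

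**Figure D3:**
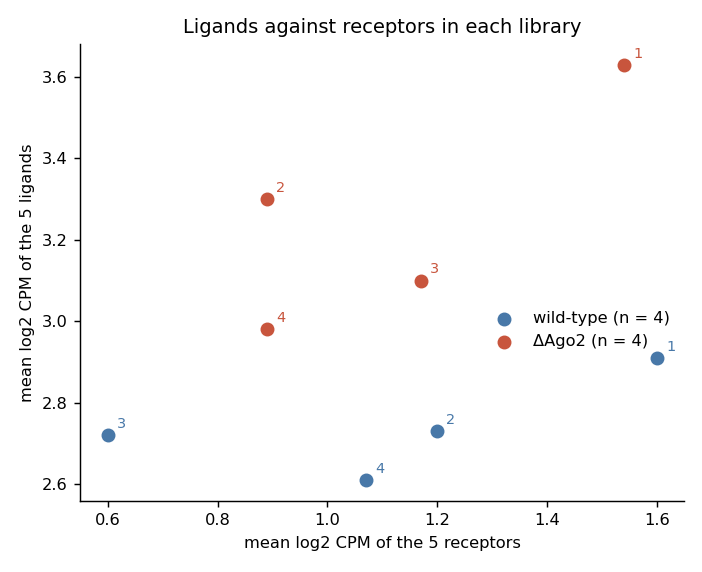
Mean log2 CPM of the 5 checkpoint ligands against that of the 5 checkpoint receptors in each library, wild-type in blue and ΔAgo2 in red, with replicate numbers beside the points. The red points lie between 2.98 and 3.63 on the ligand axis, above all blue points, and the groups overlap on the receptor axis.

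The order of the levels per length was headed by Lgals9 in both groups, at 114 ± 27.6 TPM in wild-type and 226 ± 15.3 TPM in ΔAgo2 tumors (SD, n = 4 each), far above the next member. In wild-type tumors it was followed by Tigit (8.75 ± 1.76 TPM), Havcr2 (6.77 ± 4.96), Cd274 (6.77 ± 1.17), Lag3 (4.75 ± 1.55), Cd86 (3.82 ± 2.16), Pdcd1lg2 (2.23 ± 1.52), Cd80 (1.97 ± 1.03), Pdcd1 (1.68 ± 0.695) and Ctla4 (0.912 ± 0.462). Neighbours in this order below Lgals9 differed by less than the larger of their SDs, except Cd274 from Lag3 and Pdcd1 from Ctla4. In ΔAgo2 tumors the order after Lgals9 was Cd274 (17.1 ± 6.21 TPM), Havcr2 (14.4 ± 6.39), Cd86 (7.88 ± 2.03), Tigit (7.68 ± 1.02), Cd80 (3.8 ± 0.603), Lag3 (3.17 ± 1.43), Pdcd1 (1.37 ± 0.439), Ctla4 (1.28 ± 0.117) and Pdcd1lg2 (0.988 ± 0.549). Here the neighbours below Lgals9 that differed by more than the larger SD were Havcr2 and Cd86, Tigit and Cd80, and Lag3 and Pdcd1. Pdcd1lg2 was thus last and Cd274 second, whereas in wild-type tumors they stood seventh and level with the third.

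In whole tumors, fewer cells of a type and less RNA per cell cannot be told apart, so each ligand was also set against macrophage and monocyte markers and each receptor against T cell markers within the same library. Which cells carried the transcripts was not measured, and PD-L1 and TIM-3 are known from other cells too. The T cell markers (15 genes) summed to 35.5, 28.4, 13.1 and 41.0 CPM in the wild-type tumors and to 65.0, 15.5, 20.4 and 15.8 CPM in the ΔAgo2 tumors, with 0 of 15 called in either direction by edgeR. Their log2 fold changes had a median of 0.09, with 10 above 0 and 5 below, from -0.99 for Zap70 to 1.17 for Cd3g, and the most abundant, Lck and Cd2, were at -0.58 and -0.00. The macrophage and monocyte markers (13 genes) summed to 1820 to 2050 CPM in wild-type and 1310 to 3100 CPM in ΔAgo2 tumors, with 0 of 13 called by edgeR. Their log2 fold changes had a median of -0.04, with 6 above 0 and 7 below, from -0.51 for Cd68 to 1.22 for Ccr2, and the most abundant, C1qa and C1qb, were at -0.17 and -0.04. In both lists ΔAgo2 tumor 1 was the highest library. For the ratios an exact permutation test, two-sided, was run over the 70 assignments of 8 libraries. It cannot give a p below 0.0286, and its p-values were adjusted over the 10 members.

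Relative to the macrophage and monocyte markers, Cd274 was higher by 0.97 and Lgals9 by 0.71 on the log2 scale in ΔAgo2 tumors, each with every ΔAgo2 tumor above every wild-type tumor, an exact p of 0.0286 and an adjusted p of 0.0952. Over pan-leukocyte markers instead, the differences were 0.64 for Cd274 and 0.38 for Lgals9 with an exact p of 0.0857 and 0.0571, and after the GC correction that of Cd274 was 0.55 with an exact p of 0.171 while that of Lgals9 was 0.75 with an exact p of 0.0286. Pdcd1lg2 differed by -1.35, with an adjusted p of 0.143 in the exact test, and by -0.76 without wild-type tumor 4. For Cd80 and Cd86 the differences were 0.81 and 0.97, also with an adjusted p of 0.143 in the exact test, and 0.57 and 0.61 without wild-type tumor 4. Relative to the T cell markers, Lag3 was at 0.82, 1.47, 1.5 and 1.8 in the wild-type tumors and at 0.36, 0.59, 0.80 and 0.39 in the ΔAgo2 tumors on the log2 scale. The groups did not overlap on this ratio although they did on the level of Lag3, and the difference was -0.86 with an exact p of 0.0286 and an adjusted p of 0.0952. The separation was lost after the GC correction (-0.20, exact p of 0.543), after thinning to the shallowest library (-0.60, exact p of 0.143) and over pan-leukocyte markers (-1.24, exact p of 0.0857). The other receptors overlapped between the groups, with differences of -0.48 for Pdcd1, 0.38 for Ctla4, 1.22 for Havcr2 and -0.43 for Tigit and an adjusted p of 0.367 to 0.543 in the exact test. The size of these differences moved with single libraries, while their signs held with each library left out. Without ΔAgo2 tumor 1 the differences were -0.29 for Pdcd1, 0.76 for Ctla4, 1.91 for Havcr2 and -0.02 for Tigit. Havcr2 was at 0.37 without wild-type tumor 4, Tigit at -0.13 without wild-type tumor 3, Pdcd1 at -0.30 without wild-type tumor 2 and Ctla4 at 0.23 without ΔAgo2 tumor 2. Thus 0 of the 10 ratios passed the threshold after adjustment, and 3 had an unadjusted p under 0.05. Those 3 stood at the smallest p the exact test can give, and the adjustment still put them at 0.0952. The count of 0 was thus limited by the number of libraries and does not show that the ratios were alike.

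**Figure D4:**
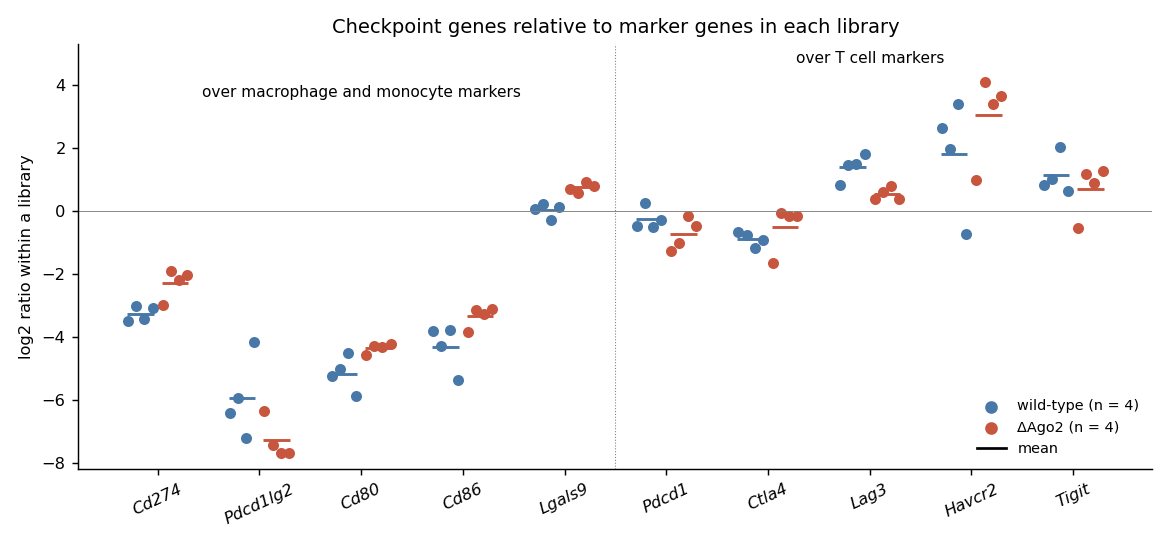
Log2 ratio of each checkpoint gene to marker genes within a library, ligands over macrophage and monocyte markers and receptors over T cell markers, in 4 wild-type (blue) and 4 ΔAgo2 (red) tumors. Points are libraries 1 to 4 from left to right within a group and lines are group means. The groups are apart for Cd274, Lgals9 and Lag3 and overlap for the other 7 genes, and the separation of Cd274 and Lag3 is lost after the GC correction.

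To see which transcripts varied together with the PD-1 axis apart from genotype, log2 CPM was taken as deviations from the group means and compared with that of 10508 genes over the 8 libraries. The genes most like Cd274 were Nptx1, Ccdc191 and Inpp1, with Pearson correlations of 0.962, 0.962 and 0.961 and Spearman correlations of 0.929, 0.929 and 0.738. Those most like Pdcd1 were Dus1l, Suv39h1 and Dcaf11, with Pearson correlations of 0.969, 0.959 and 0.956 and Spearman correlations of 0.976, 0.881 and 0.881. As the top of a long ranking over libraries that differ in depth, these values are a description and were not tested.

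Other genes of the checkpoint pathways gave few calls. Of 25 further inhibitory receptors and ligands, 23 were tested and 0 were called by edgeR in either direction, with a median log2 fold change of 0.61 and 18 values above 0. The most abundant were Cd47, the signal against phagocytosis, at a log2 fold change of 0.67 (adjusted p of 0.0723 by edgeR), and its receptor Sirpa, at 0.01 with an adjusted p of 0.983. The TIGIT ligands Pvr and Nectin2 and the related Nectin3, all named after their values were seen, had log2 fold changes of 0.82, -0.80 and 0.70. Their adjusted p were 0.0574, 0.139 and 0.193 by edgeR.

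Of 16 costimulatory genes, 11 were tested, 1 was called higher and 0 lower. The gene that rose was Cd40, which licenses antigen-presenting cells on contact with T cell help. It stood at 6.93, 6.2, 5.17 and 10.5 CPM in the wild-type tumors and at 29.9, 15.7, 16.3 and 15.3 CPM in the ΔAgo2 tumors, with no overlap and a log2 fold change of 1.44, an SE of 0.31 and an adjusted p of 0.0375 (edgeR). Tnfrsf9, the gene of the activation receptor 4-1BB, was at 0.68 with an adjusted p of 0.169. Of 15 genes on the route from interferon gamma to PD-L1, 14 were tested and 0 were called, with a median of 0.51 and 10 values above 0. Ifng itself was too low to be tested, at 0.0953 to 0.718 CPM. The abundant kinase gene Jak1 was at 0.53 and Stat3 at -0.28, with adjusted p of 0.277 and 0.35 by edgeR.

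Genes that act below the receptors did not move in one direction. Of 15 genes of checkpoint signalling and T cell exhaustion, 14 were tested and 0 called, with 5 log2 fold changes above 0 and a median of -0.07. Ptpn11, the gene of the phosphatase SHP2 recruited by PD-1, was at 0.18 with an adjusted p of 0.575 by edgeR, and Bag6, a partner of TIM-3, at -0.87 with an adjusted p of 0.0942. Among lymphocyte lists, 0 genes were called by edgeR. The 9 NK and cytotoxic markers all had log2 fold changes above 0, with a median of 0.89 and summed levels of 15.7 to 31.8 CPM against 27.8 to 57.4 CPM, and the granule genes Gzmb and Prf1 were at 1.09 and 0.72 with adjusted p of 0.0966 and 0.16. The 4 regulatory T cell markers had a median of 0.02, with Foxp3 at -0.79 and Il2ra at 0.65 and adjusted p of 0.297 and 0.295 by edgeR. The leukocyte gene Ptprc, named after its values were seen, was at 1.12 with an adjusted p of 0.0843, while the 5 pan-leukocyte markers it belongs to summed to 462 to 906 CPM in wild-type and 433 to 840 CPM in ΔAgo2 tumors. Coro1a and Laptm5 made up most of that sum, with log2 fold changes of -0.87 and -0.05, whereas the median over the 5 markers was 0.51, with 3 above 0. Of the 9 dendritic cell markers, which mark further carriers of the ligands, 0 were called and the median was -0.21.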

How the data were processed

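RNA was extracted from the tumors with TRIzol, and stranded Illumina mRNA libraries were sequenced as paired-end reads on a NovaSeq. The authors deposited raw gene counts, not normalized, and TPM values scaled for gene length. The methods, written for cultured cells, name alignment to a ribosomal RNA database and then mm10 and counting with featureCounts, and the submitters' notes name STAR. The strand setting and annotation release are not given in the sources used here. Identifiers were matched to GENCODE M21, 99.29% of 55487 with their version.

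Counts were filtered with filterByExpr, scaled by TMM and tested with edgeR 4.0.16 (robust quasi-likelihood, genotype only) in R 4.3.3, at an adjusted p of 0.05. DESeq2 1.42.0 and limma 3.58.1 served as alternatives. Log2 CPM used a prior count of 2. Levels of single members were compared with each other in TPM. The ligand and receptor means and the ratios to marker genes were taken in log2 CPM, without scaling for gene length. Only their differences between the groups are therefore read. The ratios to marker genes were tested with exact permutation tests in SciPy 1.17.1. Counts ran from 7903288 to 268564145 per library, so low genes are imprecise in shallow libraries. All libraries carry batch label 1. Replicates came from separate tumors, and every pair within a group differed beyond sampling noise.

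The members and lists were chosen with earlier results of these data known. The lung epithelial markers were added after the files were seen. All members were named, and from each list up to 4 genes past the threshold or, with fewer than 2, the 2 with the highest mean CPM. Marker lists outside the pathway are given mostly by list. The B cell (3 tested of 6), neutrophil, endothelial and fibroblast lists had medians of 0.03, 0.25, -0.04 and -0.64 and 0 calls by edgeR. Alternatives covered scaling, filters, GC and length, the replicate block, thinning, pseudocounts of 0.1 and 1 and each left-out library.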

Additional observations from a re-analysis of the deposited data

Results flagged for a closer look

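Each member's level, its ratio to marker genes and the ligand minus receptor difference were examined within each group of 4 libraries for a library far from the others, by Dixon's criterion at its 95% critical value. Of 42 groups examined, 2 exceeded it, where 2.1 are due by chance. Pdcd1lg2 was at 1.58 CPM in ΔAgo2 tumor 1 and at 0.34 to 0.518 CPM in the other 3 ΔAgo2 tumors, with a gap of 0.856 of the range. The log2 ratio of Ctla4 to the T cell markers was -1.67 in ΔAgo2 tumor 1 and -0.163 to -0.0653 in the others, with a gap of 0.939 of the range. Both values belong to the library with the highest summed T cell and macrophage markers, and the part of that in them was not tested.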

How the results depend on the processing

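The count of members called higher was 1. It was 2 with DESeq2's Wald test, limma voom with quality weights and the length correction, each time with Lgals9 added to Cd274. It was 1 with log2(TPM + 1), where the gene was Lgals9 and not Cd274. It was 0 with the GC correction, with log2(TPM + 0.1), with log2(TPM + 1) and no filter, and without both the shallowest and the deepest library, a setting chosen after seeing the data. Leaving out each library gave 0 to 1. With the replicate number as a block it was 0, alone and with the GC correction, but the same-numbered libraries did not deviate together (correlations of -0.236, 0.103, -0.0448 and -0.29), so that the numbers do not pair the tumors. The count of members called lower was 0, and 3 with voom (Pdcd1lg2, Lag3 and Tigit). Cd274 kept its direction in all 25 settings, with a log2 fold change of 0.61 to 1.27 and an adjusted p of 3.56e-05 to 0.239, and passed in 13, and Lgals9 ran from 0.55 to 1.02 and passed in 4. The ligand minus receptor difference of 0.50 was 0.20 with the GC correction and 0.40 to 0.67 with each library left out. Ctla4 turned to -0.26 with the GC correction, to -0.16 with the block and the GC correction and to -0.03 without wild-type tumor 3 (-0.03 to 0.65 with each library left out), and its ratio difference turned to -0.11 with the GC correction and to -0.00 over pan-leukocyte markers. Over all genes, 497 were called, 69 with the block, 2214 with DESeq2, 4476 with voom, 1677 without ΔAgo2 tumor 1 and 82 without ΔAgo2 tumor 4. Calls were higher in ΔAgo2 in 37.8% of cases, from 14.5% without both the shallowest and the deepest library and 17.4% with the block to 53.5% with voom and 54.8% without ΔAgo2 tumor 1, with 49.4% by DESeq2. The cause of these changes was not tested. The receptors rest on 7 to 48 counts in the shallowest library. Thinning to that depth left the SE of Pdcd1 (0.51 to 0.50) and Havcr2 (0.50 to 0.51) nearly as before. It raised that of Tigit from 0.27 to 0.38 and that of Lag3 from 0.52 to 0.6, and Ctla4 was no longer tested.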
